A study of Arabidopsis thaliana with 6 samples.

Results

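The clock pseudo-response regulators of Arabidopsis thaliana are the 5 genes PRR9, PRR7, PRR5, PRR3 and TOC1, taken by their locus identifiers from a table of 33557 genes and from a table of transcription start groups in which they hold 6 of 38090 entries. All 5 were tested by the authors. Of the 6 libraries, 3 are labelled CPL4 knockdown and come from an RNA interference line (CPL4RNAi), and the other 3 come from wild-type Columbia (Col). Both genotypes are of the Columbia ecotype and were grown as whole seedlings for 10 days on a quarter-strength salt medium with sucrose, with no treatment given. The CPL4 protein removes phosphate from the tail of the largest subunit of RNA polymerase II. The labels name neither the promoter of the interference construct nor the number of lines nor the hour of harvest. No value below can therefore be placed at a time of day. A difference in harvest hour between the genotypes, if any, cannot be told apart from one of genotype. The tables hold 1 FPKM value (fragments scaled by transcript length and by the fragments mapped) per genotype, so no spread between replicates can be shown and the authors' own test is the only one.

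The FPKM of the targeted gene went against the label. CPL4 (AT5G58003) stood at 8.84 FPKM in the labelled knockdown and 4.92 FPKM in wild type, with q = 6.39e-04 in the authors' deposited table. A value per gene cannot tell reads of the gene itself from any that the interference construct gave. Whether the gene's own transcript was lower was not tested. Every direction below is therefore drawn from the library labels, and "labelled knockdown" means the libraries labelled CPL4 knockdown. Of 5 shoot markers, 0 were called at q under 0.05 in the authors' deposited table (4060 of all 18038 tested genes were), and their median log2 ratio was −0.10. RBCS1A stood at 5823 FPKM in the labelled knockdown and 4637 FPKM in wild type, and STM at 3.56 FPKM in the labelled knockdown and 3.00 FPKM in wild type. LHCB1.1 stood at 2622 FPKM in the labelled knockdown and 2818 FPKM in wild type, TMM at 11.3 FPKM in the labelled knockdown and 14.1 FPKM in wild type, and FAMA at 9.82 FPKM in the labelled knockdown and 11.7 FPKM in wild type. Of 6 root markers, PLT1, WOX5, COBL9 and NRT2.1 were below 1 FPKM in both genotypes and untested, EXPA7 was not called, and SHR was called higher in the authors' deposited table, at 8.84 FPKM in the labelled knockdown and 6.55 FPKM in wild type. Summed over each list, shoot markers stood at 8470 FPKM in the labelled knockdown and 7484 FPKM in wild type, a sum made almost wholly of RBCS1A and LHCB1.1, and root markers at 10.9 FPKM in the labelled knockdown and 8.57 FPKM in wild type. Their part in the results below was not tested. Library totals are not given here. Summed read depth over the 150 regions of a deposited snRNA coverage table covers those regions only and does not stand for a library total. In replicates 1, 2 and 3 of the labelled knockdown it was 1602365, 2963978 and 283411. In the wild type replicates, in the same order, it was 2180315, 7535755 and 4821226.

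In plants, pseudo-response regulators carry a receiver-like domain that lacks the phosphate-accepting residue of true response regulators, and a C-terminal CCT domain through which the clock members contact DNA. The clock members are transcriptional repressors whose messages peak in sequence from morning to evening, PRR9 leading, then PRR7, PRR5, PRR3 and TOC1. PRR9, PRR7 and PRR5 repress the dawn genes CCA1 and LHY through TOPLESS corepressors, TOC1 represses them later in the day and night, and PRR3 shields TOC1 protein from the F-box protein ZTL, which targets TOC1 and PRR5 for breakdown.

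The 5 genes are related but not interchangeable for sequencing reads. Their gene models in the RefSeq annotation of assembly TAIR10.1 differ in size, with coding lengths of 1407 bp (PRR9), 2184 bp (PRR7), 1677 bp (PRR5), 1569 bp (PRR3) and 1857 bp (TOC1), spread over 6 to 9 coding exons. The second coding exon, which encodes part of the receiver-like domain, was 162 bp long in each of the 5. It is shown because it can be compared base by base without gaps. Capitals mark the 39 positions (24.1%) that carry the same base in all 5 genes, in the sense of each gene, 5′ to 3′.
PRR9 (chr2:19233161-19233322, plus strand): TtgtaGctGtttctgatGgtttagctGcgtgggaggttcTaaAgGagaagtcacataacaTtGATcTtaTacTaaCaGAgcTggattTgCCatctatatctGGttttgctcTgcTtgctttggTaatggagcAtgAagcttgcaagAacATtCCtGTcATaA
PRR7 (chr5:640889-641050, minus strand): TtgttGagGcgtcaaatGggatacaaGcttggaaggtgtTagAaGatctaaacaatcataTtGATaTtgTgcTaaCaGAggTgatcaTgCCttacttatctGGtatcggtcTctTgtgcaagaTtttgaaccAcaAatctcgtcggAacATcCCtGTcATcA
PRR5 (chr5:8357904-8358065, minus strand): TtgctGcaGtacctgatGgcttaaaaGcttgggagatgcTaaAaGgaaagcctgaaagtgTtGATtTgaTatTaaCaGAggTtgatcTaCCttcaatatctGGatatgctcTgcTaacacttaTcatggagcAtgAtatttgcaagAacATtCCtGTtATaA
PRR3 (chr5:24199985-24200146, minus strand): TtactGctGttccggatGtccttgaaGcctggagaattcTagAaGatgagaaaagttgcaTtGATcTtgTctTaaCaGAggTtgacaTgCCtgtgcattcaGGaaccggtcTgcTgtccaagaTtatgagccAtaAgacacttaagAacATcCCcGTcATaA
TOC1 (chr5:24675990-24676151, plus strand): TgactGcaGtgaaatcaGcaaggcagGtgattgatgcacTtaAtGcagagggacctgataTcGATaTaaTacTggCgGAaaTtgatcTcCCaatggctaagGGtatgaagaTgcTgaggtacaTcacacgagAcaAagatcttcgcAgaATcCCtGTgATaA
PRR9 and PRR5 were the most alike in this exon, with 72.8% identical positions, followed by PRR7 and PRR3 with 64.8%. TOC1 was the most distant, sharing between 42.6% and 44.4% with the other members. The longest exact word shared by the deposited loci of any pair, on either strand, was 18 bp, between PRR9 and PRR5, and the labels give reads of 100 bp. No deposited locus overlapped that of a member.

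The members did not move as a block: 1 rose, 3 fell and 1 was not called in the labelled knockdown. These 4 calls of 5 stand beside 22.5% of all tested genes that the authors' deposited table calls in either direction, 12.7% being higher and 9.78% lower. PRR9, the morning member, rose 3.58-fold, while PRR3 fell to 5.04 FPKM, against 14.7 FPKM in wild type. The FPKM scale is per transcript length, so levels of different genes can be set side by side. In RNA of whole seedlings, fewer cells of a type and less RNA per cell cannot be told apart.

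PRR9 (AT2G46790, listed in the files as TL1; chromosome 2, 19232649 to 19235087, TAIR10) stood at 6.76 FPKM in the labelled knockdown and at 1.89 FPKM in wild type, a log2 ratio of 1.84 with q = 6.39e-04 in the authors' deposited table. Its level was above 44.0% of tested genes in the labelled knockdown and above 12.5% in wild type, where it was the least abundant member. A higher log2 ratio was found for 1.88% of the 17961 tested genes with reads in both genotypes.

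PRR7 (AT5G02810; chromosome 5, 637897 to 641977), a repressor that acts with PRR9 in the day, stood at 42.9 FPKM in the labelled knockdown and at 55.8 FPKM in wild type, a log2 ratio of −0.38 with q = 0.0208 in the authors' deposited table. This is the smallest called change of the 4, and it is not called at q under 0.01, where 3 members and 13.7% of all tested genes are. At an unadjusted p under 0.05, 4 members and 33.7% of all tested genes pass. PRR5 (AT5G24470; chromosome 5, 8355951 to 8358873), which represses dawn genes in the afternoon, was the most abundant member in both genotypes, at 56.4 FPKM in the labelled knockdown and 62.8 FPKM in wild type. Its log2 ratio of −0.15 was not called, with p = 0.245 and q = 0.433 in the authors' deposited table, which does not show that its level was equal.

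PRR3 (AT5G60100, listed as APRR3; chromosome 5, 24197998 to 24201404) had the largest fall of the family, a log2 ratio of −1.54 with q = 6.39e-04 in the authors' deposited table. Only 0.857% of tested genes with reads in both genotypes had a lower log2 ratio. Its level was above 35.4% of tested genes in the labelled knockdown and above 68.2% in wild type. TOC1 (AT5G61380, listed as PRR1; chromosome 5, 24675064 to 24678550), the evening repressor of the core loop, stood at 36.8 FPKM in the labelled knockdown and at 57.9 FPKM in wild type, a log2 ratio of −0.65 with q = 6.39e-04 in the authors' deposited table. PRR9, PRR3 and TOC1 share the lowest p-value the test can give, 5.00e-05, with 1411 genes in all, so their q-values do not rank them.

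**Figure D1:**
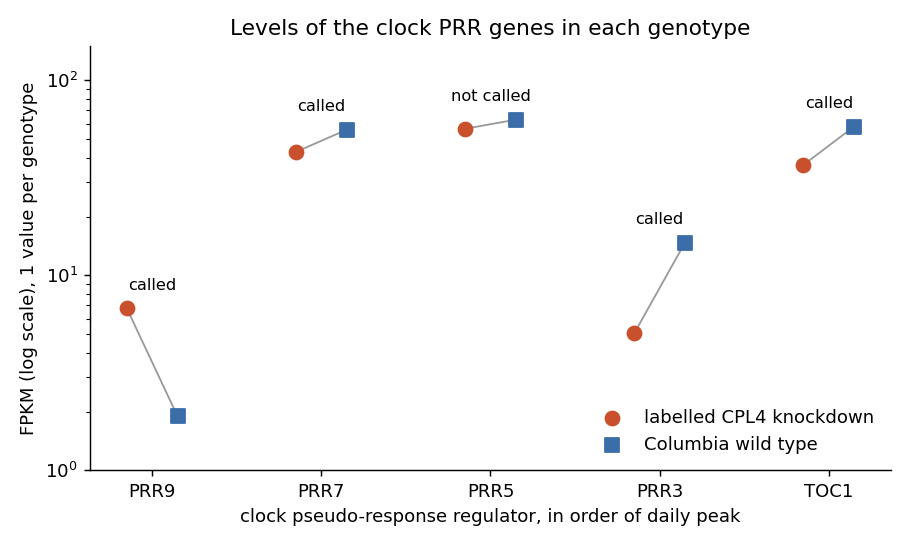
FPKM of each clock PRR gene on a log axis, 1 deposited value per genotype, circles for the labelled CPL4 knockdown and squares for Columbia wild type, with no error bars because the table holds no value per library. PRR9 is higher in the labelled knockdown (6.76 against 1.89 FPKM), and the other 4 are lower, PRR5 without being called.

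Read in the order of their daily peaks, the log2 ratios were 1.84, −0.38, −0.15, −1.54 and −0.65. The only positive value belonged to the earliest member, and the later ones did not form a steady slope. The order of the levels among the members differed between the genotypes. In the labelled knockdown PRR5 was followed by PRR7, TOC1, PRR9 and PRR3, and in wild type it was followed by TOC1, PRR7, PRR3 and PRR9. The levels of PRR7, PRR5 and TOC1 spanned 1.53-fold in the labelled knockdown and 1.12-fold in wild type. With 1 value per genotype, whether neighbours in these orders differ beyond the spread of libraries was not tested. PRR9 over PRR3 was 1.34 in the labelled knockdown and 0.129 in wild type, a 10.4-fold difference in their balance. This pair joins the only rise to the largest fall, so no other pair of members gives a larger difference. It rests on a low wild type level of PRR9, 1.89 FPKM. PRR9 over PRR7 was 0.158 in the labelled knockdown and 0.0338 in wild type. PRR9 over TOC1 was 0.183 in the labelled knockdown and 0.0326 in wild type. The 5 levels summed to 148 FPKM in the labelled knockdown and 193 FPKM in wild type.

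**Figure D2:**
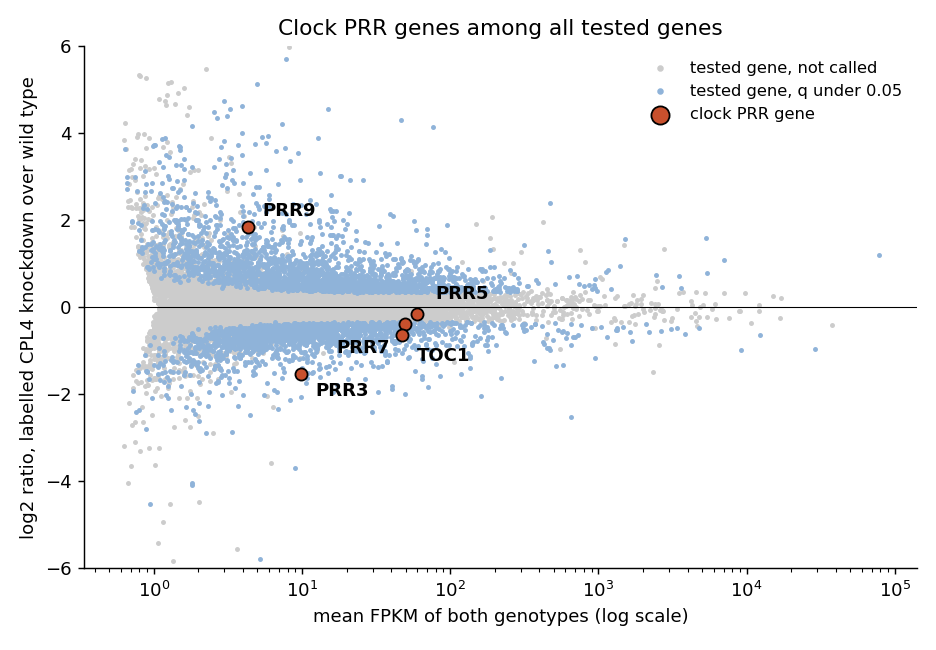
Log2 ratio of FPKM (labelled CPL4 knockdown over wild type) against the mean FPKM of both genotypes on a log axis, for tested genes with reads in both genotypes (grey not called, blue q under 0.05), with the 5 clock PRR genes in red; 20 genes beyond a log2 ratio of 6 in either direction lie outside the axis. PRR9 at 1.84 and PRR3 at −1.54 lie near the edges of the cloud, and PRR7, PRR5 and TOC1 lie closer to 0 at higher levels.

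PRR3 was the only member with several start groups, sets of transcripts that share a transcription start. Both of its start groups fell, and 5 of the 6 start groups of the family were called, beside 17.5% of all tested start groups. Of the 6, 1 was higher and 4 were lower, beside 10.2% and 7.34% of all tested start groups, and 4 passed q under 0.01, beside 10.7%. Apart from those of PRR3, the start groups repeat the FPKM and p-value of their genes, so these counts are not a further check. The more abundant PRR3 start group (TSS25851 in the files) stood at 3.57 FPKM in the labelled knockdown and at 8.56 FPKM in wild type, a log2 ratio of −1.26 with q = 0.00411 in the authors' deposited table. The less abundant PRR3 start group (TSS33491) stood at 1.47 FPKM in the labelled knockdown and at 6.12 FPKM in wild type, a log2 ratio of −2.06 with q = 7.81e-04 in the authors' deposited table. The less abundant start group made up 29.1% of PRR3 FPKM in the labelled knockdown and 41.7% in wild type. This change of share, 12.5 percentage points, was not tested, and 32.6% of the 1431 genes with exactly 2 tested start groups had a larger one (median 7.23 points). The files give no position for a start group. RefSeq lists 7 PRR3 transcripts with 4 distinct 5′ ends that lie within 51 bp of each other.

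**Figure D3:**
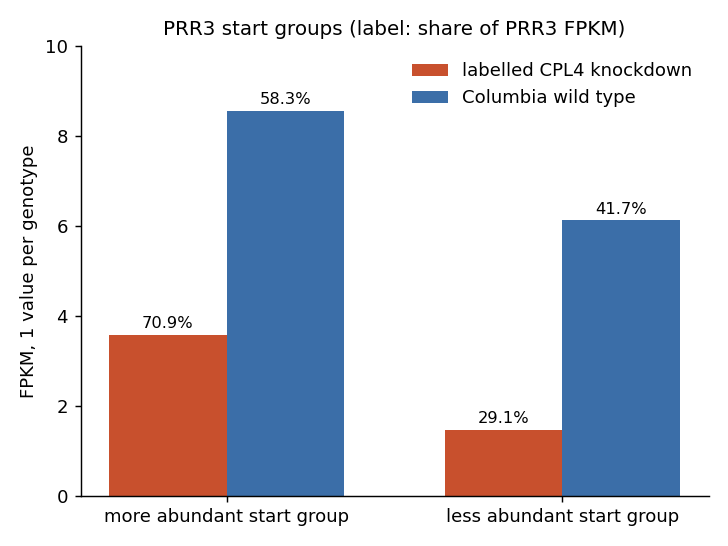
FPKM of the more and the less abundant PRR3 start group, 1 deposited value per genotype, with bars for the labelled CPL4 knockdown left of those for Columbia wild type and the share of PRR3 FPKM above each bar. Both start groups are lower in the labelled knockdown, and the less abundant one makes up 29.1% of PRR3 there and 41.7% in wild type.

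The DNA before the 5 genes was read for letters that clock and light factors are known to bind, as a description of what the members share. The window was the 250 bases before the start, taken as the farther upstream of the deposited and the RefSeq 5′ end, on both strands. Of 7 motifs searched, the Hex element TGACGTGG, a sequence bound by bZIP transcription factors, was the most widely shared: it was present in 4 of the 5 windows, those of PRR9, PRR7, PRR3 and TOC1, and in 1.27% of the windows of 26675 protein-coding genes. PRR7, PRR3 and TOC1 each held 2 copies and PRR9 held 1. The 7 copies are printed as 30-base stretches in the sense of the motif, with the motif in capitals, to show their flanks.
PRR9, 82 bases before the start (chr2:19232514-19232543, minus strand): cttcactgagcTGACGTGGcttaatatgag
PRR7, 131 bases before the start (chr5:642143-642172, plus strand): gcgaggattagTGACGTGGatggtatatca
PRR7, 85 bases before the start (chr5:642097-642126, minus strand): aatatccgctcTGACGTGGaacttctcgaa
PRR3, 112 bases before the start (chr5:24201509-24201538, plus strand): gctgagattagTGACGTGGacaaaatcaaa
PRR3, 48 bases before the start (chr5:24201445-24201474, plus strand): ttggagtttgaTGACGTGGcagaactaacc
TOC1, 134 bases before the start (chr5:24674818-24674847, plus strand): tttctccaagaTGACGTGGccttttctcta
TOC1, 59 bases before the start (chr5:24674893-24674922, minus strand): ggccaaggagaTGACGTGGacaataaaaag
The copies lay between 48 and 134 bases before the start. The genes with the element include the member that rose and all 3 that fell. PRR5, which was not called, had no match to any of the 7 motifs in its window. That window lies before the deposited 5′ end of PRR5 (8358873), well upstream of its RefSeq 5′ end (8358546). The bases just before the RefSeq end of PRR5 were therefore not searched. Whether the motifs go with the calls was not tested.

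The G-box CACGTG, bound by bHLH and bZIP factors, occurred in 2 copies before PRR9 and in 1 before PRR7 (6.57% of all windows held it). The evening element AAAATATCT, bound by CCA1, LHY and REVEILLE proteins, occurred in this full form before TOC1 alone among the members (2.40% of all windows). Shorter forms were not searched. Its last letters AATATCT, on either strand, also lie in the windows of PRR9, PRR7 and PRR3, and their share of all windows was not counted. The LUX-binding letters GATTCG (7.83% of all windows) and the HUD element CACATG (11.1%), a motif of dawn-phased genes, each occurred before PRR9 alone among the members. The CCA1-binding letters AAAAATCT (6.75%) and the LUX-binding letters GATACG (4.61%) occurred in no member's window. No match overlapped another. The windows of PRR9 and PRR3, the members with the largest rise and fall, are given whole, 5′ to 3′ in the sense of the gene, with every match in capitals (the Hex element, and GATTCG before PRR9, appear here as their reverse complements).
PRR9 (chr2:19232357-19232606, plus strand): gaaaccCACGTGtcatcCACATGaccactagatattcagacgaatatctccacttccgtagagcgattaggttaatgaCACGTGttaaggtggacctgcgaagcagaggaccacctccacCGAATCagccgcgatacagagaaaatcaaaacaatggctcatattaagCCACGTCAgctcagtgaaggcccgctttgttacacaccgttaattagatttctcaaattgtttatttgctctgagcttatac
PRR3 (chr5:24201416-24201665, minus strand): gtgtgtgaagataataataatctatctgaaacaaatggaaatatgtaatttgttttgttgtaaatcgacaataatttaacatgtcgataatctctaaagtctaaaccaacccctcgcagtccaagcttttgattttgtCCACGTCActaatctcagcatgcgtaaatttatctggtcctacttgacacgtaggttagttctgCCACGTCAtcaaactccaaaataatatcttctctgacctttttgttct
A match describes letters, not binding, and a missing match says nothing of sites outside the window. The files list an untested gene at 0 FPKM in both genotypes within the windows of PRR9 (AT2G46787) and of PRR7 (AT5G02811).

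**Figure D4:**
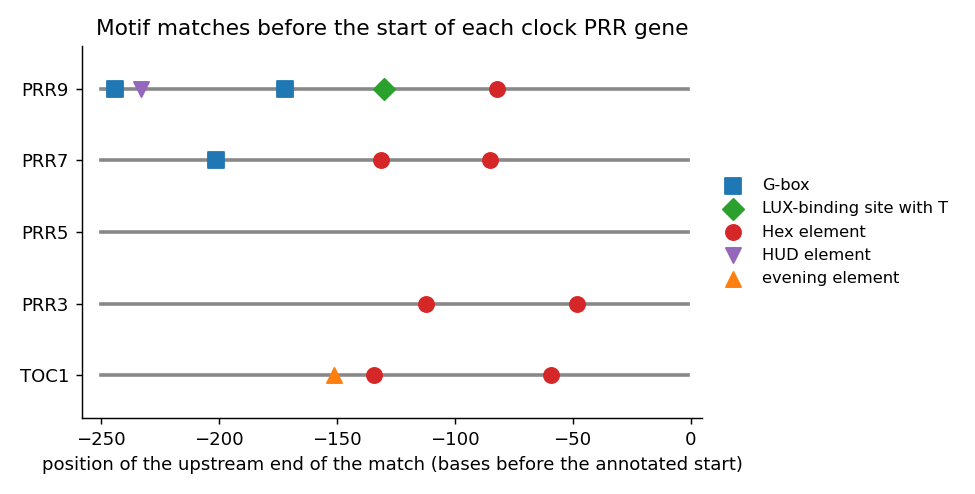
Position of each motif match in the 250 bases before the start of each clock PRR gene, plotted as the distance of its upstream end from the start, with a shape and colour per motif. The Hex element appears 7 times over 4 genes, between 134 and 48 bases before the start. The PRR5 line is empty, and its window lies before the deposited 5′ end, well upstream of the RefSeq one.

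Of the 10 genes that flank the members, 5 were tested and 1 was called, beside 22.5% of all tested genes called in either direction. On the side of its end, TOC1 faces AT5G61390 (NEN2, an exonuclease-domain gene), which RefSeq places on the opposite strand, with 111 bp between the deposited loci. AT5G61390 rose, at 4.94 FPKM in the labelled knockdown and 2.38 FPKM in wild type (log2 ratio 1.05; the authors' deposited table gives q = 6.39e-04), while TOC1 fell. The labels do not say whether the libraries mark strand, so reads that cross such an end cannot be assigned to either gene. AT2G46800 (MTP1, a zinc transporter gene) beside PRR9 had a log2 ratio of 0.27 with q = 0.149, and AT5G02800 beside PRR7 had one of 0.07 with q = 0.783, neither called in the authors' deposited table. AT5G24460 beside PRR5 (0.18, q = 0.401) and AT5G61370 beside TOC1 (−0.21, q = 0.669) were not called either in the authors' deposited table. The remaining neighbours, including both of PRR3, were untested and stood below 1 FPKM.

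PRR9 and CCA1 lie on the same chromosome with 10584 bp between their deposited loci, and both rose. None of the 3 genes between them was called in the authors' deposited table: AT2G46800, AT2G46810 (log2 ratio 0.11) and AT2G46820 (−0.18). PRR7 and RVE4 lie closer, with 6726 bp between their deposited loci, and there PRR7 fell and RVE4 was not called (log2 ratio −0.06, q = 0.812 in the authors' deposited table). No member lay close to an snRNA region of the deposited coverage table. The smallest distance was 34.8 kb, from TOC1 to the extension of atU2.7, and the next was 512 kb, from PRR3.

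Of the dawn genes that the PRR proteins repress and their relatives, 4 rose and 1 fell among 9 tested CCA1, LHY and REVEILLE genes (median log2 ratio 0.11). The counts of each list from here on stand beside the 12.7% higher and 9.78% lower of all tested genes, and its median beside their −0.00; none was tested as a list. LHY, the partner of CCA1 in the morning loop, was 16.0-fold higher, at 7.38 FPKM in the labelled knockdown and 0.461 FPKM in wild type, with q = 6.39e-04 in the authors' deposited table. Its fold rests on a low wild type level. CCA1 stood at 8.96 FPKM in the labelled knockdown and at 3.41 FPKM in wild type (log2 ratio 1.39, q = 6.39e-04 in the authors' deposited table). RVE8, an activator of PRR5 and TOC1, rose to 2.39 FPKM in the labelled knockdown, against 0.992 FPKM in wild type (q = 0.00484 in the authors' deposited table). RVE1, which links the clock to auxin, rose by 0.99 on the log2 scale, and RVE2 fell by 0.96, both called in the authors' deposited table. RVE4, RVE5, RVE6 and RVE7 were not called, and RVE3 was not tested.

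LNK proteins act with RVE8 to activate PRR5 and TOC1, and 3 of the 4 LNK genes rose (median log2 ratio 0.58). LNK3 stood at 10.8 FPKM in the labelled knockdown and at 3.79 FPKM in wild type (log2 ratio 1.51, q = 6.39e-04 in the authors' deposited table). LNK4 (log2 ratio 0.77, q = 6.39e-04) and LNK1 (0.38, q = 0.0267) rose as well, and LNK2 (0.33, q = 0.0578) was not called in the authors' deposited table.

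Genes of the evening complex, which represses PRR9 and PRR7 at night, fell. Of these targets, PRR9 rose (log2 ratio 1.84) and PRR7 fell (−0.38), and PRR3 and TOC1 fell as well. Of the 5 genes that make up the complex and GI together, 0 rose and 4 fell (median log2 ratio −0.52). ELF4 stood at 10.6 FPKM in the labelled knockdown and at 18.7 FPKM in wild type (log2 ratio −0.82, q = 0.00166 in the authors' deposited table). ELF3 (−0.52, q = 0.00117), LUX (−0.51, q = 0.00211) and BOA (−0.68, q = 0.0347) fell in the authors' deposited table. GI, which works with ZTL on TOC1 stability, was not called, at 73.4 FPKM in the labelled knockdown and 81.6 FPKM in wild type (q = 0.444 in the authors' deposited table).

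Among 3 F-box genes behind PRR protein turnover, 0 rose and 1 fell (median log2 ratio −0.11). ZTL (log2 ratio 0.17, q = 0.387) and LKP2 (−0.11, q = 0.626) were not called, and FKF1, an evening-expressed relative, fell by 0.63 on the log2 scale (q = 6.39e-04) in the authors' deposited table. TOPLESS corepressor genes and HDA6 together numbered 6 (median log2 ratio 0.21). Of these, 2 rose and 0 fell, beside 22.5% of all tested genes called in either direction. TPR3 (log2 ratio 0.73, q = 6.39e-04) and TPR4 (0.33, q = 0.0494) rose in the authors' deposited table. TPL (0.15), TPR1 (−0.30), TPR2 (0.15) and HDA6 (0.26) were not called.

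**Figure D5:**
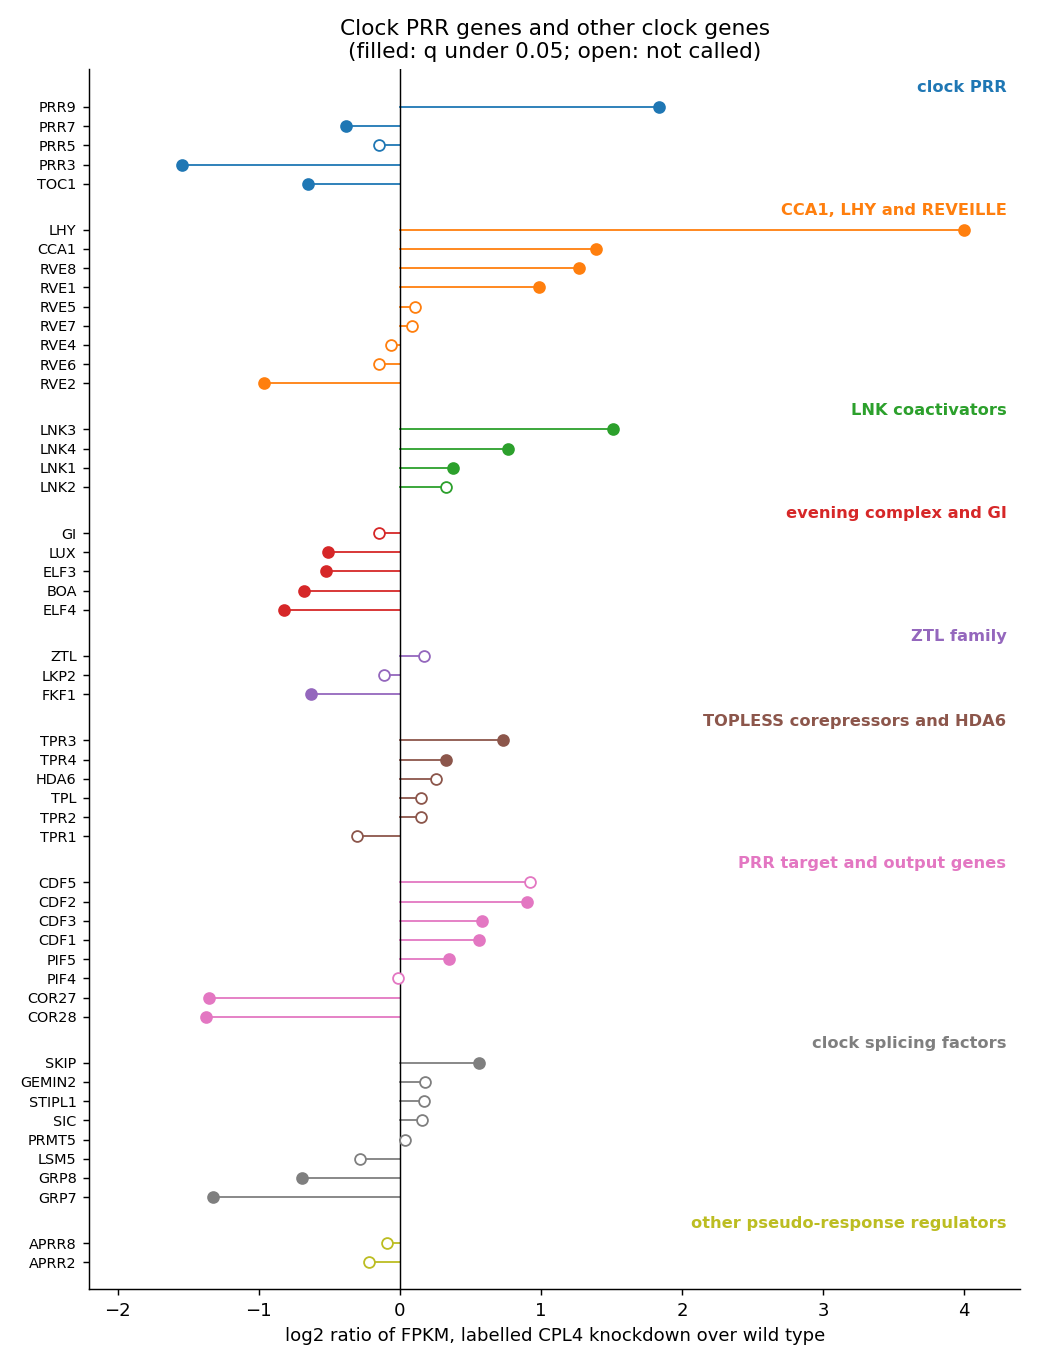
Log2 ratio of FPKM (labelled CPL4 knockdown over wild type) for each tested gene of the clock lists, grouped by list, filled circles for genes called at q under 0.05 and open circles for the others. PRR9 at 1.84 lies on the side of LHY (4.00), CCA1 (1.39) and LNK3 (1.51). PRR3 at −1.54 and TOC1 at −0.65 lie on the side of ELF4 (−0.82) and LUX (−0.51). PRR7 (−0.38) and RVE2 (−0.96), both called, lie on that side too. Of 9 tested CCA1, LHY and REVEILLE genes, 4 rose, 1 fell and 4 were not called.

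Of 8 genes known as targets or outputs of the PRR repressors, 4 rose and 2 fell (median log2 ratio 0.45). The flowering repressors CDF2 (log2 ratio 0.90, q = 6.39e-04), CDF3 (0.58, q = 6.39e-04) and CDF1 (0.56, q = 0.0106) rose, as did the growth regulator PIF5 (0.35, q = 0.0472), in the authors' deposited table. COR27 and COR28, evening-expressed genes that feed back on the clock, fell. COR27 stood at 8.56 FPKM in the labelled knockdown and at 21.9 FPKM in wild type, and COR28 at 8.06 FPKM in the labelled knockdown and at 20.9 FPKM in wild type (q = 6.39e-04 for each in the authors' deposited table). CDF5 was not called although its log2 ratio was 0.92 (5.39 FPKM in the labelled knockdown and 2.84 FPKM in wild type, q = 0.0571 in the authors' deposited table), and PIF4 was not called at 57.7 FPKM in the labelled knockdown and 58.2 FPKM in wild type.

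Of 8 genes whose products are known to act on the splicing of clock transcripts, PRR9 among them, 1 rose and 2 fell (median log2 ratio 0.10), beside 22.5% of all tested genes called in either direction. SKIP, a splicing factor needed for PRR7 and PRR9 splicing, rose by 0.56 on the log2 scale with q = 6.39e-04 in the authors' deposited table. The clock-regulated RNA-binding protein genes GRP7 and GRP8 fell. GRP7 stood at 331 FPKM in the labelled knockdown and at 824 FPKM in wild type, and GRP8 at 30.8 FPKM in the labelled knockdown and at 49.6 FPKM in wild type (q = 6.39e-04 for each in the authors' deposited table). PRMT5, the arginine methyltransferase whose loss alters PRR9 splicing, was not called, at a log2 ratio of 0.04 (q = 0.880 in the authors' deposited table). The tables give no value for a spliced or unspliced form of any member.

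Pseudo-response regulators outside the clock showed no called change. APRR2 stood at 17.7 FPKM in the labelled knockdown and at 20.6 FPKM in wild type (q = 0.274), and APRR8 at 4.46 FPKM in the labelled knockdown and at 4.75 FPKM in wild type (q = 0.763), in the authors' deposited table. APRR4 was listed at 0 in both genotypes, and APRR6 was listed at 0 in the labelled knockdown and at 0.0203 FPKM in wild type, and neither was tested. A difference between these genes and the clock members was not tested.

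With 1 value per genotype, the likeness of patterns can be read only from the log2 ratio. Among 45 tested genes of the clock lists, the gene nearest in log2 ratio was LNK3 for PRR9, TPR1 (−0.30) for PRR7, GI (−0.15) for PRR5, COR28 (−1.37) for PRR3 and FKF1 (−0.63) for TOC1.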

How the data were processed

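RNA of whole seedlings was sequenced in 6 libraries, 3 per genotype, in pairs of 100 bp after ribosomal RNA depletion and SMARTer cDNA synthesis, per the labels' protocols. Per the submitters' processing notes, the tools were TopHat2 2.0.14, Cuffdiff 2.2.1.3 and SAMtools, besides Trim Galore 0.4.0 and CASAVA 1.8.2, on build TAIR10. Options, strand marking and the treatment of reads with several origins are not stated there. The authors deposited FPKM per gene and per start group, 1 value per genotype, with a p-value and a q-value of their test in Cuffdiff's layout per the file headers. The deposited snRNA table holds read coverage, summed per-base depth over snRNA regions per library, used here only for its totals and positions.

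Log2 ratios were recomputed from FPKM, since 1255 cells of the deposited ratio column hold spreadsheet errors. No error was derived from the statistic column, which holds 77. Calls are the authors' q under 0.05 over 18038 tested genes or 20159 start groups. An adjustment recomputed from the deposited p differed from it by at most 5.25e-07, by code tested on simulated data. p-values cover only the spread the authors' model takes from 3 libraries per genotype; the labels call these biological triplicates. No test of a list was made. The members, lists and motifs were chosen with earlier results of these data known. Named are the members, their neighbours, every gene of lists of up to 6, and in longer lists the 3 highest and 3 lowest called log2 ratios, with those not called given as names or counts.

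Coordinates of genes are the files' (TAIR10, counted from 1). Sequences are from RefSeq, assembly TAIR10.1, in its coordinates. Of 26687 protein-coding genes, 57.8% shared a start or end base with a RefSeq transcript at equal coordinates, and 1.20% did after a shift of 1 bp. All 5 members matched by locus. Members were compared over a coding exon in place of the proteins, which were not used here. Promoter windows left out loci over 20000 bp. Alternatives were a q of 0.01, unadjusted p, a floor of 1 mean FPKM, a pseudocount of 1, 3 rescalings and the start group table. Computation used pandas 2.3.3 and numpy 2.4.6 in Python 3.11.15, and plots used matplotlib 3.10.9.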

Additional observations from a re-analysis of the deposited data

How the results depend on the processing

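At q under 0.01, PRR7 lost its call with its log2 ratio unchanged at −0.38, and 3 members were called in place of 4. At that stricter q, the genes called higher numbered 1 in place of 2 among the corepressors, 2 in place of 4 among the target and output genes and 2 in place of 3 among the LNK genes, and evening complex genes called lower numbered 3 in place of 4. At an unadjusted p under 0.05, and with the adjustment over genes with a floor of 1 mean FPKM, 4 members were called. The start group table repeats the gene's own values for each member with a single start group and the recomputed adjustment returns the deposited q, so neither is a further check. A pseudocount of 1 FPKM brought PRR9 to 1.43 and PRR3 to −1.38. Rescaling to equal totals, by the upper quartile or by the median of tested genes subtracted 0.07, 0.03 and −0.00 from every log2 ratio alike, and no member changed sign. No paired analysis was possible because the tables hold 1 value per genotype, so no library could be left out either. The depth of a single library behind any member is unknown.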
